A study of Mus musculus with 12 samples.

Results

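The genes described here are Aqp1, Aqp3, Aqp4, Aqp5, Aqp7 and Aqp11, 6 members of the aquaporin family of membrane channels. They were chosen by name, with earlier results of these arrays in view, in which the level of Aqp1 was known to differ between the lymphatic groups. They were found as the rows of the array value table whose platform annotation names them, taking a gene's brightest row. Brightness was the only measured value in this rule, and each member had 1 row, so it made no choice. The members are 6 of the 30773 genes with a row of their own.

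The study profiled endothelial cells of mouse ear skin on Affymetrix whole-transcript arrays, 12 in all. The mice were C57BL6 animals, 5 weeks old by the design text and adult by the sample labels, and all carried the lymphatic reporter transgene Tg(Prox1-EGFP)KY221Gsat. In this transgene the Prox1 promoter, active in lymphatic endothelium, drives a green fluorescent protein. Cells were first enriched on beads coated with PECAM1 antibody and then sorted. Cells positive for PDPN and Prox1-GFP gave 3 groups by their LYVE1 level, which were capillary cells (cap LEC, LYVE1-high), pre-collecting vessel cells (pre-col LEC, LYVE1-intermediate) and collecting vessel cells (col LEC, LYVE1-low or negative). Blood endothelial cells (BEC) carried PECAM1 and lacked PDPN, Prox1-GFP and LYVE1. Each group had 3 arrays, labelled as biological replicates, and each array was made from 500 pg of RNA. The labels do not say whether replicates came from separate or pooled animals, so p-values measure the spread between these samples. The labels name no treatment. All values are log2 intensities, on which 1 unit is a doubling.

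Aquaporins are channels of several membrane-spanning helices around a narrow pore. The classical members, such as AQP1, AQP4 and AQP5, pass water, the aquaglyceroporins AQP3 and AQP7 also pass glycerol, and AQP11 belongs to a divergent branch found largely in internal membranes. In most organs AQP1 is the water channel of the capillary wall, and AQP7 is best known as the route by which glycerol leaves fat cells. In skin, AQP3 is known from keratinocytes and AQP5 from sweat glands, while AQP4 is the channel of astrocyte end-feet.

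The upstream sequences of 4 members are shown because Aqp1, Aqp7 and Aqp11 were all higher in BEC on these arrays, and Aqp3 lies next to Aqp7 on chromosome 4 and was not. Each is the 250 bases before the RefSeq transcription start in build GRCm38.p6, written 5′ to 3′ on the gene's strand. Motifs of 5 factor families that act in endothelium were searched on both strands. For ETS factors the letters were AGGAAG. For the GATA family they were AGATAA. KLF and SP factors were searched as CACCC. SOX factors were searched as AACAAT and nuclear receptors as AGGTCA. Capitals mark each match, and no match in these windows overlapped another. For Aqp7, which has 2 annotated starts, the window of the upstream start is printed. The Aqp1 window is chr6:55336049-55336298 on the plus strand, that of Aqp7 chr4:41048137-41048386 on the minus strand, that of Aqp3 chr4:41098184-41098433 on the minus strand and that of Aqp11 chr7:97738248-97738497 on the minus strand.
Aqp1: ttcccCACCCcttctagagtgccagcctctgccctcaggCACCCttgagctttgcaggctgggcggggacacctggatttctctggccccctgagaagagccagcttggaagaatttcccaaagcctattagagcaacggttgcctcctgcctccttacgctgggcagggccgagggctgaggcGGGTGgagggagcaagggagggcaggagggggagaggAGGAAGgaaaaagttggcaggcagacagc
Aqp7: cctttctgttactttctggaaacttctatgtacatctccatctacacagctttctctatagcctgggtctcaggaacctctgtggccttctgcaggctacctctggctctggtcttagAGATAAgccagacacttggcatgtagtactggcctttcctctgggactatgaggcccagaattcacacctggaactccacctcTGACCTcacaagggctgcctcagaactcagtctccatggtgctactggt
Aqp3: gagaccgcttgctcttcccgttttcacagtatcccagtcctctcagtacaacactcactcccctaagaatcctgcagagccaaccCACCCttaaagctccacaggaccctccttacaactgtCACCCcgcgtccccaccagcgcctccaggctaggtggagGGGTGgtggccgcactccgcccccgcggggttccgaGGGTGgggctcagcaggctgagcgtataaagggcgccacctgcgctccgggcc
Aqp11: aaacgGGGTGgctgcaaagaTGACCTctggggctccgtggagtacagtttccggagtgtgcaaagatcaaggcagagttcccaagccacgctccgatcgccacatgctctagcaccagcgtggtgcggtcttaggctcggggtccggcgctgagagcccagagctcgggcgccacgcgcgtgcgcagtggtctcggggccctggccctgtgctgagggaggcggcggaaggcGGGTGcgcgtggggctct

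The Aqp1 window held AGGAAG at 29 to 24 bases before the start, a motif found in 29.5% of the 32851 windows of the same length in the RefSeq table. It also held CACCC at 3 places, a motif found in 52% of the windows. The Aqp7 window held AGATAA at 132 to 127 bases before the start (9.99% of windows) and AGGTCA, in reverse complement, at 49 to 44 bases (14% of windows). The windows of the 2 Aqp7 starts overlap. Before the second start AGGTCA was found in reverse complement at 223 to 218 bases, the same site as at 49 to 44 bases before the first. A further AGGTCA, also in reverse complement, lay at 101 to 96 bases before the second start, and CACCC at 63 to 59 bases. The Aqp11 window held AGGTCA at 230 to 225 bases, also in reverse complement, and CACCC at 2 places. The Aqp3 window held CACCC at 4 places and none of the other motifs. AACAAT was found in none of these windows, against 9.42% of all. The base composition of the windows differed: G and C made up 62% of the Aqp1 window, 50.8% of the Aqp7 window, 64% of the Aqp3 window and 67.2% of the Aqp11 window, with a median over all windows of 52.4%. The Aqp7 window held 0 CG dinucleotides and the Aqp11 window 23, with a median of 6. A match is a description of the letters and not of binding.

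The sort genes followed the labels. Mean Lyve1 was 13.08 ± 0.06 for cap LEC, 12.64 ± 0.15 for pre-col LEC, 10.44 ± 0.35 for col LEC and 6.84 ± 0.40 for BEC (± SD, n = 3), while Prox1 lay between 12.38 and 12.60 on every LEC array and between 6.55 and 7.55 in BEC. Pecam1 was at 12.16 to 12.62 on all 12 arrays. Pre-col LEC replicate 1 stood apart among the LEC arrays, with mean levels of 8.05 over 11 mural cell markers, 8.47 over 9 fibroblast markers and 8.08 over 11 blood endothelial markers. The other 8 LEC arrays had mural means of at most 7.30, fibroblast means of at most 7.75 and blood endothelial means of at most 7.60. The fibroblast mean of 7.75 was that of col LEC replicate 1, against 6.86 and 6.92 on the other col LEC arrays. The mural mean of 7.30 and the blood endothelial mean of 7.60 were those of cap LEC replicate 1. BEC replicate 1 had a mean of 8.14 over 7 lymphatic endothelial markers, against 6.87 and 7.09 in the other BEC arrays. The differences of the tested members and the counts of the gene lists were therefore also computed without pre-col LEC replicate 1 and without BEC replicate 1.

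Since a probe set's brightness depends on its sequence, no member's level was set against another's. The 5222 negative control rows of the array serve as a reference for dim values: their 95th percentile was 8.92 to 9.34 and their median 5.56 to 5.94, depending on the array. By this reference Aqp1 was bright in BEC, cap LEC and pre-col LEC and near the 95th percentile in col LEC, Aqp7 was bright in BEC alone, and Aqp3, Aqp4, Aqp5 and Aqp11 were bright on no array.

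**Figure D1:**
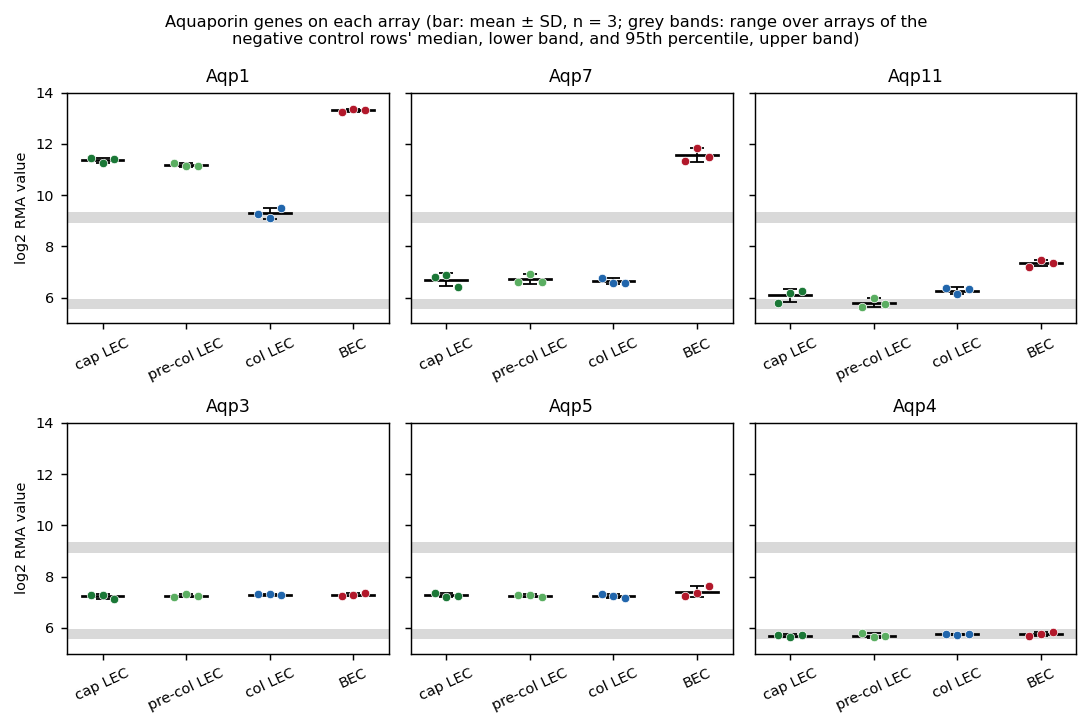
Levels of the 6 aquaporin genes on each array (y axis, log2 RMA value; x axis, sorted population; points, arrays; bars, mean ± SD, n = 3; grey bands, range over arrays of the negative control rows' median and 95th percentile). Aqp1 descends from BEC near 13.31 through cap and pre-col LEC to col LEC near 9.30, Aqp7 lies above the upper band in BEC only, and Aqp3, Aqp4 and Aqp5 lie at similar values in all groups.

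Aqp1 (row TC0600000664.mm.1), the water channel, was measured in every population and was highest in BEC and lowest in col LEC. In BEC its values were 13.24, 13.38 and 13.31. In cap LEC they were 11.44, 11.25 and 11.42, and in pre-col LEC 11.25, 11.13 and 11.14. In col LEC they were 9.28, 9.10 and 9.51, and 11 of the 12 arrays exceeded the 95th percentile of the negative controls, the exception being a col LEC array at the 94.9th percentile. All BEC arrays lay above all LEC arrays, all col LEC arrays lay below all other arrays, and cap and pre-col LEC met at 11.25. From high to low, the group means were 13.31 ± 0.07 (BEC), 11.37 ± 0.10 (cap LEC), 11.17 ± 0.07 (pre-col LEC) and 9.30 ± 0.21 (col LEC), each ± SD with n = 3.

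The differences of Aqp1 between LEC groups were known when the members were chosen, so they are given as a description with no test. Col LEC was 2.07 ± 0.10 log2 units (SE) below cap LEC, which is a 4.21-fold lower value, and 1.88 ± 0.10 below pre-col LEC, or 3.68-fold. Pre-col LEC was 0.19 ± 0.10 below cap LEC, with a 95% interval of the signed difference from -0.42 to 0.03. Along the sort, Aqp1 and Lyve1 thus stood in the same order, but the LYVE1 level was the sort criterion and the groups are cuts of it. Without pre-col LEC replicate 1 the difference between col and pre-col LEC was -1.84.

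Against BEC, Aqp1 was lower in all 3 LEC groups. limma, fitted to all 12 arrays with Benjamini-Hochberg adjustment over the 19695 genes tested, gave a difference between the mean of the 3 LEC groups and BEC of -2.70 ± 0.08 (SE; adjusted p = 4.54e-10), so that BEC was 6.49-fold higher. In the separate comparisons, which share the BEC arrays, cap LEC was below BEC by 1.94 (BEC 3.84-fold higher, limma adjusted p = 5.79e-08). Pre-col LEC was below BEC by 2.14 (4.40-fold, limma adjusted p = 2.89e-08). Col LEC was below BEC by 4.02 (16.2-fold, limma adjusted p = 3.36e-10). The gap between the lowest BEC array and the highest LEC array was 1.80, more than the whole range within any group, and 9.43% of the tested genes had all BEC arrays above all LEC arrays. Because the members were chosen with earlier results known, these p-values place a gene within a fit over all genes and are not independent evidence. Without BEC replicate 1 the difference between LEC and BEC was -2.73, and without pre-col LEC replicate 1 it was -2.71. By size of this difference Aqp1 ranked 91 among the tested genes, counted from the gene most in favour of BEC.

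Few genes shared the order seen for Aqp1. That order was read from the values of Aqp1 itself, so the shares given here are a description with no test. Of the tested genes, 0.284% had BEC arrays above all cap and pre-col LEC arrays and those above all col LEC arrays. With at least 1 log2 unit between cap and col LEC and between LEC and BEC, 10 genes (0.0508%) remained, and they were looked up after their values were seen. Besides Aqp1 they were Ablim3, Cd36, Cyp4b1-ps2, Dysf, Hecw2, Lepr, Lpar4, Pcdh17 and Pdgfd. Among these 10 genes Aqp1 had the largest difference between cap and col LEC, 2.07, ahead of Pcdh17 at 1.77. Cd36 had the largest difference between BEC and LEC, 4.47.

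Aqp7 (row TC0400002455.mm.1), the aquaglyceroporin of fat cells, was high in BEC and at background values in every lymphatic group. Its BEC values were 11.34, 11.86 and 11.50. The cap LEC arrays read 6.80, 6.89 and 6.40, the pre-col LEC arrays 6.62, 6.93 and 6.60, and the col LEC arrays 6.79, 6.57 and 6.59. The LEC values mixed freely between groups, while the BEC arrays lay 4.40 log2 units above the highest LEC array. The LEC values fell between the 59.7th and 68.9th percentiles of the negative controls, and the BEC values at the 98.9th percentile or above.

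The mean of the LEC groups was below BEC by 4.88 ± 0.13 (SE; limma adjusted p = 1.56e-10), with means of 6.69 and 11.57. Cap, pre-col and col LEC were below BEC by 4.87, 4.85 and 4.92, in comparisons that share the BEC arrays. The largest adjusted p of these 3 was 1.81e-09 by limma. Because the LEC values lie within the negative controls, the recorded difference depends on the background of the probe set. With LEC set to the 95th percentile of the negative controls, BEC was at least 5.09-fold higher. Without BEC replicate 1, the array with more lymphatic marker signal and the lowest Aqp7 value of its group, the difference was -5.00, and without pre-col LEC replicate 1 it was -4.87. On pre-col LEC replicate 1, where blood endothelial markers were highest among the LEC arrays, Aqp7 was 6.62, inside the range of the other LEC arrays. The part of cells of another population in the Aqp7 value of either array was not tested.

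Between LEC groups no difference in Aqp7 was detected. Col minus cap LEC was -0.05 ± 0.16 (SE; limma adjusted p = 0.932, 95% interval -0.40 to 0.30). Pre-col minus cap LEC was 0.02 ± 0.16 (limma adjusted p = 0.983, 95% interval -0.33 to 0.37). Col minus pre-col LEC was -0.07 ± 0.16 (95% interval -0.42 to 0.28). At values this close to background, a difference in a low level could not be seen.

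Aqp11 (row TC0700003769.mm.1), the internal membrane channel, was higher in BEC than in LEC, at values that never left the range of the negative controls. In BEC it was 7.21, 7.48 and 7.37. The cap LEC arrays read 5.80, 6.19 and 6.28, the pre-col LEC arrays 5.63, 6.0 and 5.77, and the col LEC arrays 6.39, 6.13 and 6.33. All 3 BEC arrays lay above all 9 LEC arrays, by at least 0.82, and the highest value was at the 82nd percentile of the negative controls.

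The mean of the LEC groups was below BEC by 1.30 ± 0.11 (SE; limma adjusted p = 3.21e-06). The separate differences were -1.26 for cap LEC (limma adjusted p = 3.10e-05), -1.55 for pre-col LEC (limma adjusted p = 5.57e-06) and -1.07 for col LEC (limma adjusted p = 1.43e-04). Without BEC replicate 1 the difference between LEC and BEC was -1.37, and without pre-col LEC replicate 1 it was -1.27. No fold is given, since neither group rose above the 95th percentile of the negative controls. Among the LEC groups, col LEC arrays all lay above pre-col LEC arrays, by 0.13 or more, with a difference of 0.49 ± 0.14 (SE). This did not pass the threshold over all genes (limma adjusted p = 0.343; 0.40 with limma adjusted p = 0.711 without pre-col LEC replicate 1), and 11.3% of all tested genes had non-overlapping arrays in that comparison. Col minus cap LEC was 0.20 ± 0.14 (limma adjusted p = 0.674) and pre-col minus cap LEC -0.29 ± 0.14 (limma adjusted p = 0.782).

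Aqp3 (row TC0400002456.mm.1), Aqp5 (row TC1500001018.mm.1) and Aqp4 (row TC1800001017.mm.1), the channels of keratinocytes, glands and astrocytes, showed no detectable signal or difference. Aqp3 lay between 7.12 and 7.36 on all 12 arrays, with group means from 7.24 in cap LEC to 7.29 in col LEC and BEC. Its LEC minus BEC difference was -0.03 ± 0.06 (SE; limma adjusted p = 0.737, 95% interval -0.17 to 0.10). Aqp5 lay between 7.18 and 7.65, and its highest value was on BEC replicate 3. Its LEC minus BEC difference was -0.15 ± 0.08 (SE; limma adjusted p = 0.225, 95% interval -0.33 to 0.03), and the groups overlapped. Without BEC replicate 1 these differences were -0.06 for Aqp3 (limma adjusted p = 0.566) and -0.24 for Aqp5 (limma adjusted p = 0.07). Leaving out pre-col LEC replicate 1 gave -0.03 and -0.16. Aqp4 lay between 5.63 and 5.85, below the median of all rows on every array, and so was not tested. Its group means were 5.69 ± 0.06 (cap LEC), 5.70 ± 0.09 (pre-col LEC), 5.75 ± 0.02 (col LEC) and 5.77 ± 0.08 (BEC), each ± SD with n = 3. For these 3 genes the values of each group met or overlapped those of every other group.

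Counted together, 5 of the 6 members passed the filter on dim genes, which required a value above the array's median on at least 3 arrays. Of these 5, 3 were called lower in LEC than in BEC at an adjusted p under 0.05 and 0 higher, where 10.6% of all tested genes were called lower and 12.1% higher. In each separate comparison with BEC the same genes, Aqp1, Aqp7 and Aqp11, were called lower, also when each array that stood apart was left out in turn, against 9.56% of all genes for cap LEC, 8.16% for pre-col LEC and 7.94% for col LEC. Between LEC groups, of the 4 tested members other than Aqp1, limma called 0 in any comparison. At an unadjusted p under 0.05 they numbered 0 in col against cap LEC, 0 in pre-col against cap LEC and 1, Aqp11, in col against pre-col LEC, where 10.5%, 6.39% and 5.86% of all tested genes passed it. After adjustment those comparisons called 1.66%, 0.00% and 0.300% of all tested genes.

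**Figure D2:**
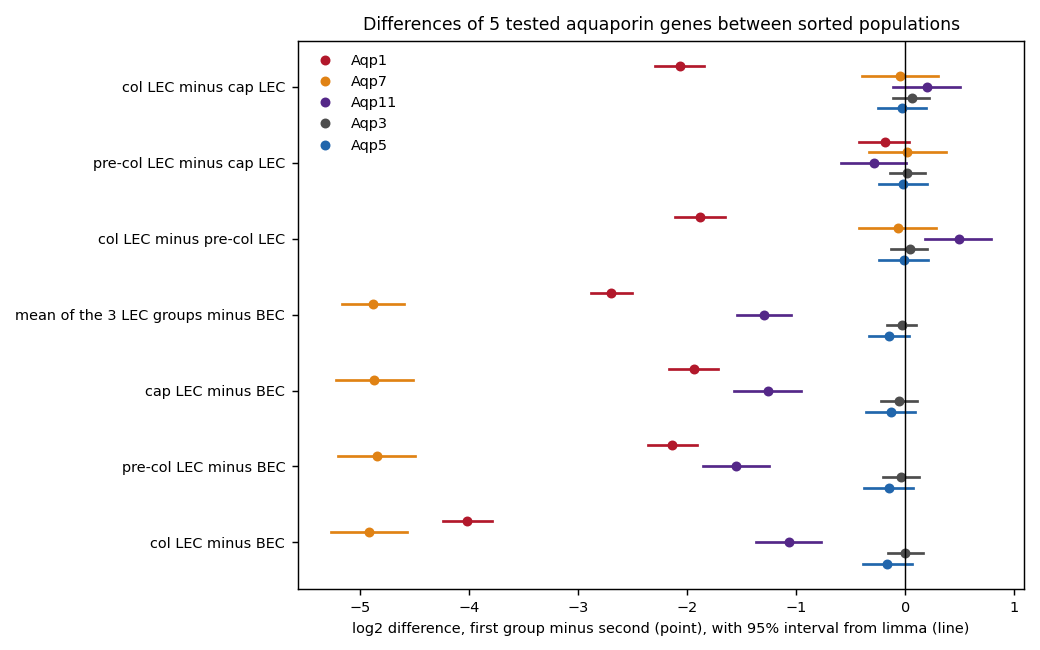
Differences between sorted populations for the 5 tested aquaporin genes (x axis, log2 difference, first group minus second; points, limma estimate; lines, 95% interval; y axis, comparison). Aqp1, Aqp7 and Aqp11 lie left of 0 in all 4 comparisons with BEC. Aqp1 alone lies near -2 for col against cap LEC and col against pre-col LEC. These Aqp1 differences between LEC groups were known when the members were chosen and are a description.

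The other family members with a row were Mip, Aqp2, Aqp6, Aqp8, Aqp9 and Aqp12, channels of lens, kidney, liver and exocrine glands. None exceeded the 95th percentile of the negative controls on any array, and Aqp8 and Aqp9 did not pass the filter. Aqp2, the channel of the kidney collecting duct, was lower in LEC than in BEC by 0.21 (limma adjusted p = 0.0369), and Aqp12 by 0.24 (limma adjusted p = 0.0304). Their values spanned 7.20 to 7.59 and 7.23 to 7.65 over all arrays. Neither call was firm. That of Aqp2 held in 8 of the 19 alternatives, with limma adjusted p-values from 0.028 to 0.141, and was lost with array weights, with the replicate block and when any 1 of 9 arrays was left out. That of Aqp12 held in 14 of 19, with limma adjusted p-values from 0.0173 to 0.109, and was lost without BEC replicate 2 or 3, col LEC replicate 2 or 3 or cap LEC replicate 2. The arrays whose loss ended the Aqp2 call were all col LEC arrays, pre-col LEC replicates 1 and 3, cap LEC replicates 2 and 3 and BEC replicates 2 and 3. With these genes included, 9 of the 12 family genes were tested and 5 were called lower in LEC with 0 higher, against 10.6% lower and 12.1% higher over all tested genes.

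Genes with a pattern like Aqp1 were sought by Pearson's r over the 12 arrays, among 1135 tested genes whose group means spanned at least 1 log2 unit. Since the arrays fall into 4 groups, r follows mostly the differences between groups and is given without a p. The 10 nearest were Ablim3 (r = 0.969), Hecw2 (0.965), Pdgfd (0.961), Cd200 (0.960), Lrch1 (0.953), Pcdh17 (0.950), Cyp4b1-ps2 (0.944), Pxdn (0.943), Lepr (0.941) and Plpp3 (0.938). Over the 9 LEC arrays alone r was 0.96 for Ablim3, 0.94 for Hecw2 and 0.92 for Cd200, and 0.83 to 0.91 for the other 7.

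Ablim3, which encodes an actin-binding LIM protein, had group means of 10.34 (cap LEC), 9.90 (pre-col LEC), 8.86 (col LEC) and 10.97 (BEC). Hecw2, a ubiquitin ligase gene, went from 8.80 in cap LEC to 8.35 in pre-col LEC and 7.32 in col LEC, with 9.77 in BEC. Pre-col minus cap LEC was -0.44 for Ablim3 (limma adjusted p = 0.456) and -0.45 for Hecw2 (limma adjusted p = 0.701), neither of which passed the threshold. Pdgfd, a platelet-derived growth factor ligand, was 3.14 lower in LEC than in BEC, the largest such difference of the 10. Its cap LEC arrays were uneven, with 8.79 on replicate 1 and 7.72 and 7.69 on the others. Lepr, the leptin receptor gene, was at 9.38, 8.89, 8.23 and 10.06 in cap, pre-col, col LEC and BEC. Plpp3, a lipid phosphate phosphatase gene, and Pxdn, the peroxidasin gene, exceeded the 95th percentile of the negative controls on all 12 arrays, as did Cd200. Cyp4b1-ps2 is a pseudogene whose probes may also take up transcripts of its parent gene.

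The genes nearest to Aqp7 were Prdm1 (r = 0.999), Ccdc85a (0.998), Slc28a2b (0.997), Scarb1 (0.997) and Col15a1 (0.997). Scarb1, the receptor for high-density lipoprotein, was at 12.12, 12.18 and 12.08 in BEC and at 8.02 to 8.33 on the LEC arrays. Col15a1, a basement membrane collagen gene, was at 10.71, 11.04 and 10.91 in BEC and at 7.03 to 7.54 in LEC. Prdm1, a transcriptional repressor gene, had a mean of 7.79 in BEC and 5.61 to 5.71 in the LEC groups. It never exceeded the 95th percentile of the negative controls, and neither did Ccdc85a or Slc28a2b. Prdm1, Ccdc85a and Slc28a2b each exceeded the array's median on the 3 BEC arrays only. They passed the filter on dim genes through BEC alone, and their high r with Aqp7 follows in part from that. For such genes, high in BEC and flat in LEC, the LEC arrays weigh little in r, and within the 9 LEC arrays it ranged from 0.24 for Slc28a2b to 0.77 for Ccdc85a.

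The genes nearest to Aqp11 were Fat4 (r = 0.972), Tnfrsf1a (0.972), Slc7a5 (0.962), Golm1 (0.961) and Sec14l1 (0.957). Fat4, an atypical cadherin gene, had means of 9.93 (cap LEC), 9.74 (pre-col LEC), 10.21 (col LEC) and 11.06 (BEC). It took the same order of groups as Aqp11, BEC, col, cap and pre-col LEC, and was above the 95th percentile of the negative controls on all 12 arrays. Since Fat4 was picked by its r with Aqp11, the shared order follows in part from that choice. Among the LEC groups the order of Aqp11 rests on differences that were not called. Slc7a5, the large neutral amino acid transporter gene, was at 9.18, 9.18 and 8.96 in BEC and at 7.61 to 8.12 in LEC.

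**Figure D3:**
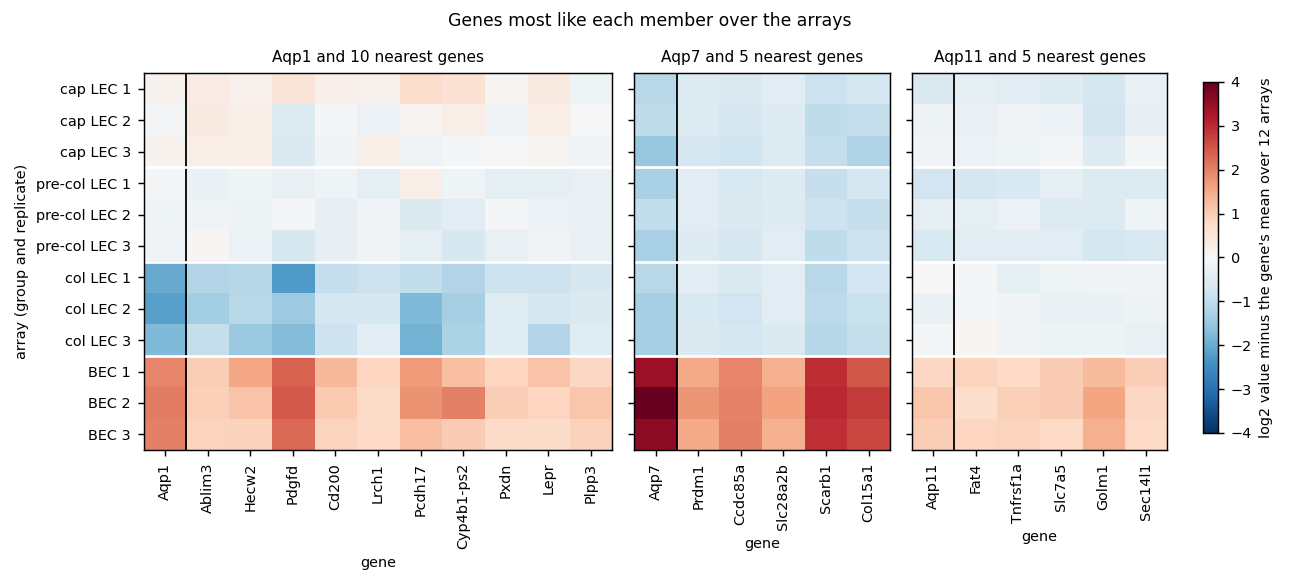
Values of Aqp1, Aqp7 and Aqp11 and of the genes nearest to each (columns) on each array (rows), as log2 value minus the gene's mean over the 12 arrays (colour scale from -4 to 4). The Aqp1 block grades from BEC through cap and pre-col LEC to col LEC, while the Aqp7 block separates BEC from LEC with no gradation among LEC arrays.

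Triglyceride breakdown yields the glycerol passed by AQP7 in fat cells. Genes of glycerol and triglyceride handling, a list that also holds fatty acid uptake and binding genes, were mostly higher in BEC. The list, like those that follow, was drawn up with earlier results of these arrays known. Of 19 tested genes, 11 were called lower in LEC than in BEC and 0 higher. Those not called were Gpd1l, Dgat1, Dgat2, Gpam, Gpat3, Gpat4, Angptl4 and Pgp. Their median difference was -0.41, against -0.02 over all tested genes, and 10.6% of all tested genes were called lower. Without BEC replicate 1 there were 10, Pnpla2 having lost its call, and without pre-col LEC replicate 1 there were 11. Cd36, a fatty acid translocase gene, was lower by 4.47 ± 0.32 (SE; limma adjusted p = 5.15e-07), with a mean of 12.25 in BEC. Its LEC means were 8.13 for cap, 8.20 for pre-col and 7.02 for col cells. Fabp4 and Fabp5, which encode fatty acid binding proteins, were lower by 3.91 and 3.12. The LEC group means of Fabp5 were 5.98 to 6.53, within the range of the negative controls, so the size of its difference depends on the background of the probe set. Mgll, the enzyme that frees glycerol from monoacylglycerol, was lower by 2.54 ± 0.10 (SE; limma adjusted p = 3.08e-09).

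Of this list, Cd36, Fabp4 and Mgll exceeded the 95th percentile of the negative controls on the 3 BEC arrays alone, as Aqp7 did. Unlike Aqp7, some varied among the LEC arrays. Fabp4 read 7.88, 6.09 and 5.79 on the cap LEC arrays, 8.57, 7.27 and 7.05 on the pre-col LEC arrays and 8.65, 8.70 and 8.37 on the col LEC arrays. Cd36 was at 8.83, 7.65 and 7.92 in cap LEC and 9.13, 7.83 and 7.64 in pre-col LEC, so that replicate 1 was the highest of each. On pre-col LEC replicate 1, where markers of blood endothelial cells, mural cells and fibroblasts were also highest, their part in these values was not tested.

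Between LEC groups 2 of the 19 genes were called, both in col against cap LEC, where 1.66% of all genes were. Mgll was lower in col LEC by 0.60 ± 0.12 (SE; limma adjusted p = 0.0334), with values of 8.46, 8.61 and 8.94 in cap LEC and 8.0, 8.02 and 8.18 in col LEC. Lipe, hormone-sensitive lipase, was higher in col LEC by 0.47 ± 0.08 (SE; limma adjusted p = 0.016). Without pre-col LEC replicate 1, Fabp4 was also called higher in col LEC. In pre-col against cap LEC and col against pre-col LEC, 0 of the 19 were called by limma. The kinase gene Gk had no row of its own and was not analysed here.

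**Figure D4:**
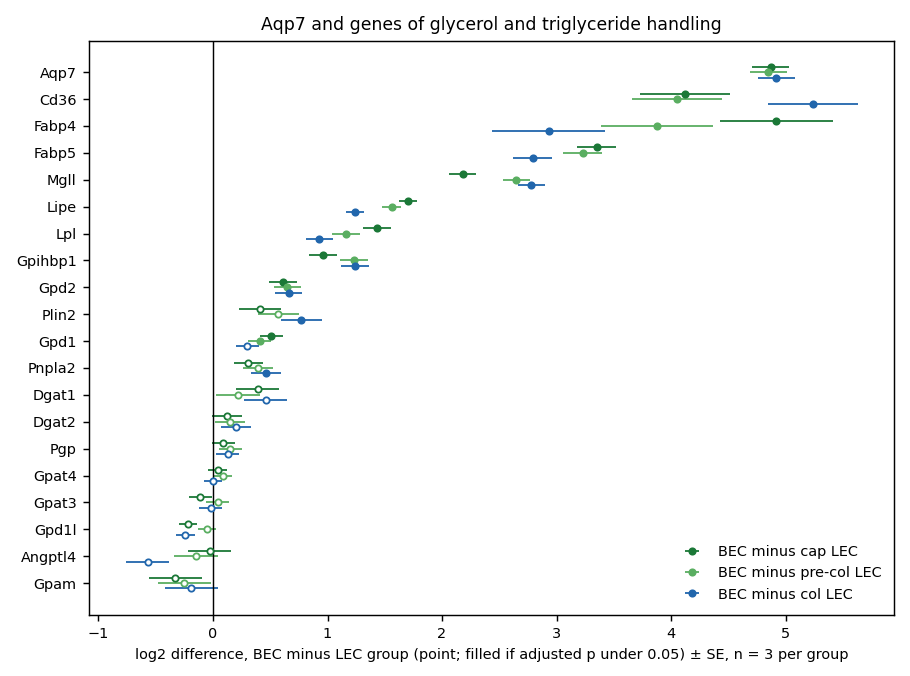
Aqp7 and the 19 tested genes of glycerol and triglyceride handling (y axis) with the log2 difference between BEC and each LEC group (x axis; points, BEC minus LEC group, filled where the adjusted p is under 0.05; bars, SE; n = 3 per group; the 3 comparisons share the BEC arrays). Aqp7 differs by nearly the same amount from each LEC group, 4.85 to 4.92, whereas the points of Cd36 and Fabp4 lie apart.

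Of genes for cell volume and osmotic regulation, partners of water channels in cell swelling, 17 were tested, with 6 lower and 3 higher in LEC than in BEC, against 10.6% lower and 12.1% higher over all tested genes. The median was -0.14, against -0.02 over all. Without pre-col LEC replicate 1 the counts were 6 lower and 4 higher, and without BEC replicate 1 they were 6 and 2. Lrrc8c, a subunit of the volume-regulated anion channel, was lower by 2.68 ± 0.10 (SE; limma adjusted p = 1.71e-09), with LEC means of 8.98 to 9.27 and a BEC mean of 11.80. Slc6a6, the taurine transporter gene, was lower by 1.42, and in col LEC it was higher than in cap LEC by 0.59 ± 0.12 (SE; limma adjusted p = 0.0274). Nfat5, the transcription factor of the response to hypertonicity, was higher in LEC by 1.19 ± 0.11 (SE; limma adjusted p = 4.09e-06). With all arrays, Slc6a6 was the only gene of the list called between LEC groups. Slc12a7 was called as well in col against cap LEC without pre-col LEC replicate 1, and Nfat5 without BEC replicate 1.

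Of genes for the passage of gases, bicarbonate and urea, 10 were tested, with 5 lower and 1 higher in LEC than in BEC, against 10.6% lower and 12.1% higher over all tested genes, and a median of -0.25. Without BEC replicate 1 there were 4 lower, Car2 having lost its call, and without pre-col LEC replicate 1 there were 5. Car8, a protein related to carbonic anhydrases, was lower by 2.96, and Car4, the membrane-anchored carbonic anhydrase, by 2.34. The LEC group means of Car8 were 5.25 to 5.35, below every array's median. Car8 passed the filter on dim genes through BEC alone, so it could only be called lower in LEC. The size of its difference depends on the background of the probe set. Slc14a1, the urea transporter gene of red cells and vasa recta, was lower by 1.76 ± 0.07 (SE; limma adjusted p = 3.45e-09). Car8 and Slc14a1 never exceeded the 95th percentile of the negative controls, and Car4 did on 2 arrays. Car5b was higher in LEC by 0.83. Between LEC groups 0 of the 10 were called by limma, and the smallest adjusted p was that of Car5b in col against cap LEC, 0.179.

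The dystrophin complex, which holds AQP4 at astrocyte membranes, had 10 tested genes, and here 3 were higher in LEC than in BEC and 0 lower, against 12.1% and 10.6% over all tested genes, with a median of 0.15. Without pre-col LEC replicate 1 the same 3 were higher and Sgca was called lower, and without BEC replicate 1 Sntb1 was called lower beside them. Sgcd was higher by 1.15, Sntb2 by 0.96 and Utrn by 0.29, the last being the dystrophin relative utrophin. Sgcd did not exceed the 95th percentile of the negative controls on any array, and Sntb2 and Utrn did on all 12. The BEC mean of Sgcd was 5.97, below every array's median, so Sgcd passed the filter on dim genes through LEC arrays. It could therefore only be called higher in LEC, and the size of its difference depends on the background of the probe set. Aqp4 itself had no detectable signal.

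Of 11 transcription factors tied to aquaporin genes or to endothelial identity, 3 were higher in LEC and 2 lower than in BEC, against 12.1% and 10.6% over all tested genes, with a median of -0.00. The counts stayed at 3 and 2 when each array that stood apart was left out in turn. Nr2f2, which marks venous and lymphatic endothelium, was higher by 1.65 ± 0.11 (SE; limma adjusted p = 2.73e-07), and Foxc2, a factor of valves and collecting vessels, by 0.99. Epas1, the hypoxia-inducible factor of endothelium, was lower by 1.20 ± 0.07 (SE; limma adjusted p = 6.29e-08), with LEC means of 11.86 to 11.97 and a BEC mean of 13.10, and Hif1a was lower by 0.63. None of the 11 was called between LEC groups by limma. The closest were Gata2 in col against cap LEC, at 0.29 ± 0.08 (SE; limma adjusted p = 0.134), and Nr2f2 at -0.40 ± 0.13 (limma adjusted p = 0.242).

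Several members are genes of other cell types, whose markers were read on the same arrays. Sorted bulk RNA does not tell fewer cells of a type from less RNA per cell. Of 9 adipocyte markers with a row, 1, Adipor2, exceeded the 95th percentile of the negative controls. Adipoq lay between 4.82 and 5.31 and Plin1 between 6.67 and 7.05 on all 12 arrays, both within the range of the negative controls. The summed linear signal of the list was nevertheless higher in BEC, at 2530 to 2773 against 1468 to 1693 in LEC. In this sum the bright Adipor2 weighs most, with means of 10.60 in BEC and 9.63 in LEC. Of its 6 tested genes, 2 were called lower in LEC than in BEC, Thrsp by 2.14 and Adipor2 by 0.98, and 1, Plin4, higher by 0.53. Over all tested genes 10.6% were called lower and 12.1% higher. Plin1, Cidec and Pck1 were lower in LEC by 0.10 to 0.17 and were not called. The part of fat cells in the BEC level of Aqp7 was not tested. Of 12 keratinocyte markers none exceeded that percentile on all arrays of a group, with Krt5 at 6.52 to 7.52 and Krt14 at 6.65 to 7.57. The summed signal of these markers too was higher in BEC, at 1410 to 1809 against 992 to 1315 in LEC. Of 7 tested, 3 were called lower in LEC and 0 higher, against 10.6% and 12.1% over all tested genes. They were Sfn, lower by 1.11, Krt5 by 0.44 and Krt14 by 0.41. The median of the 7 was -0.41, against -0.02 over all tested genes. None of 9 gland epithelium markers exceeded the percentile on any array, with Krt8 at 6.66 to 7.06. Their summed signal was 1001 to 1135 in BEC and 764 to 909 in LEC. Of 8 tested, 2 were called lower in LEC, Slc12a2 by 0.86 and Kcnn4 by 0.71, and 0 higher. The shares over all tested genes were again 10.6% lower and 12.1% higher. Aqp3 and Aqp5, which those cells are known for, showed no called difference, and the part of these cells in the BEC values of other members was not tested. None of the 3 markers with a row for erythrocytes, which also make AQP1, exceeded it.

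Mural cell markers moved with BEC. Their summed signal was 8099 to 10341 in BEC and 1200 to 4327 in LEC, and 5 of 11 exceeded the 95th percentile of the negative controls on all BEC arrays. Rgs5, a pericyte gene, was at 11.12 to 11.82 in BEC, and Acta2 at 9.91 to 10.70. Their part in the BEC levels of Aqp1, Aqp7 and Aqp11 was not tested. Pre-col LEC replicate 1 had the highest mural signal among the LEC arrays, 4327, with Rgs5 at 10.21. On that array Aqp1 was 11.25, Aqp7 6.62 and Aqp11 5.63, the last being the lowest Aqp11 value of all arrays. The part of mural cells in these values was not tested either.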

How the data were processed

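Values were log2 intensities deposited by the authors in the series' value table and, per the submitters' processing notes, made with RMA (background correction, quantile normalization and summary of probes). Its version is not given in the sources used here. Array medians were 6.06 to 6.17. The table held 72688 rows. Platform annotation named 1 gene for 31247 rows, several for 1503 and none for 33206 transcript rows; 1105 symbols were updated through the RefSeq table of GRCm38.p6, and 30773 genes had a row of their own. The number of arrays limits the precision.

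The 19695 genes that exceeded the median row of an array on 3 or more arrays were fitted with limma 3.58.1 (R 4.3.3; lmFit, eBayes; 4 groups, 12 arrays, 8 residual and 3.63 prior degrees of freedom), called at a Benjamini-Hochberg adjusted p under 0.05. On simulated data for col against cap LEC over 19695 genes, 92% of genes changed by 1 log2 unit and 99% of those changed by 2 were recovered. Replicates within a group correlated at 0.971 to 0.988 over genes. Alternatives changed normalization, filter, row, weights, prior, samples and replicates.

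Members and gene lists were chosen with earlier results of these data known. Genes named are the family, the 10 nearest to Aqp1 and 5 nearest to other members spanning at least 1 log2 unit, up to 4 called genes per list and comparison by size (2 by p where none was called), sort genes and markers. Predicted genes, small RNAs, chemoreceptors and immune receptor segments were left out of the nearest genes. Other list genes named here were chosen after their values were seen. Promoter windows came from RefSeq, all on GRCm38.p6.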

Additional observations from a re-analysis of the deposited data

How the results depend on the processing

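All calls and directions of Aqp1, Aqp7 and Aqp11 against BEC held in each alternative in which the gene was tested. The difference between LEC and BEC ranged from -2.81 to -2.66 for Aqp1, -5.00 to -4.73 for Aqp7 and -1.37 to -1.23 for Aqp11 (highest limma adjusted p-values 3.41e-08, 1.54e-08 and 6.88e-05), and col minus cap LEC for Aqp1 from -2.18 to -1.98. A filter at the 95th percentile of the negative controls tested fewer genes, dropped Aqp3, Aqp5 and Aqp11 and left 1886 genes called in LEC against BEC, 1774 for cap, 1332 for pre-col and 1454 for col LEC; of the 1886, 68.8% were higher in LEC, against 53.2% of the 4461 otherwise, and the cause of that shift was not tested. Of cap, pre-col and col LEC against BEC, 70.8%, 60.1% and 63.7% were then higher, against 53.9%, 47.5% and 51.2%. Col against cap LEC gave 327 calls, 797 with array weights and 180 to 354 when an array was left out. Pre-col against cap LEC gave 0, but 13 with cyclic loess, 12 with the stricter filter, 28 with array weights and 0 to 1 when an array was left out. Col against pre-col LEC gave 59, but 155 with array weights, 5 with only the groups compared and 24 to 63 when an array was left out. With array weights 51.0% of the calls in col against pre-col LEC were higher in col LEC, against 39.0%, and without col LEC replicate 1 54.2%. The cause of these changes was not tested. Under cyclic loess the Aqp1 mean in BEC was 13.39 and the Aqp4 means in cap and col LEC 5.77.

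Replicate numbers were not taken to pair the samples, since not every pair of the same number correlated above 0.1 in its deviations from the group means: 7 of 18 did, with a median of 0.09 (-0.09 to 0.21). Of 36 pairs with different numbers 2 did, with a median of -0.03, so some sharing by number may be present. With the replicate block the counts called were 376 in col against cap LEC, 3 in pre-col against cap LEC, 72 in col against pre-col LEC and 4467 in LEC against BEC, and no call of the 5 tested members changed. The counts of the gene lists without the arrays that stood apart were chosen after seeing the data.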
